A study of Mus musculus with 6 samples.

Results

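Interferon-stimulated genes are the antiviral and antimicrobial genes that cells switch on when interferon reaches them. A list of 45 such genes, set by symbol from their known membership in this group, was followed in myeloid cells with and without induction of the transcription factor PU.1. A gene was measured where the platform annotation gave at least 1 transcript cluster with exactly that symbol and no other, which held for 41 of the 45, each with 1 such cluster. Of the 4 genes not measured, Oas1a, Gbp2 and Dtx3l each appear on 1 transcript cluster that carries several symbols, and Ifi44 was not matched. The 41 genes are part of 22180 genes with a symbol of their own on the array.

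The cells were labelled as myeloid cells of mouse fetal liver, and every sample had GM-CSF, a cytokine of the myeloid lineages, at 1 ng/ml. There were 3 uninduced samples and 3 samples given 1000 ng/ml doxycycline for 72 hours, a treatment the labels describe as PU.1 expression. PU.1, encoded by Spi1, is an ETS-family factor of myeloid and B cells. The labels give no mouse strain, no description of the engineered construct, and no statement on whether the samples were separate cultures or clones, so the p-values cover only sample-to-sample spread, which could be technical. No group received doxycycline without the inducible gene, so an effect of the drug cannot be told apart from an effect of PU.1. Spi1 itself was at 8.80, 8.65 and 8.84 without induction (samples A, B, C) and reached 9.13, 9.04 and 9.05 after induction (log2 values), higher in all 3 induced samples by 0.31 on average (limma adjusted p = 0.152). Whether the array's probes read the introduced copy is not known, so this value does not check the labels.

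Type I interferon binds the receptor made of IFNAR1 and IFNAR2, and the kinases JAK1 and TYK2 then activate STAT2. STAT2 and IRF9 are subunits of the complex ISGF3, which binds the interferon-stimulated response element in the promoters of target genes. Interferon gamma acts on its target genes through gamma-activated sites. Products of the target genes sense viral RNA, degrade it, block translation, stop virus entry at membranes, or load peptides for display to T cells. In myeloid cells PU.1 can bind DNA next to IRF4 or IRF8 at composite elements that join an ETS site to an IRF site.

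The stretches below are printed because they hold the letters of the response element before the start of genes described further on, with Oas1a, not measured, set beside its paralogue Oas1g. RefSeq promoter windows (build GRCm38.p6, 250 bases before to 50 bases after each start) existed for 36 of the 45 genes. Oas2 was among the 9 without a window, so it was not searched. The core of the interferon response element, GAAA and GAAA with any 2 bases between them, read on either strand, occurred in 20 of these 36 genes (55.6%), against 1079 of 27025 genes with a window (3.99%). In 17 of the 20 genes at least 1 match lay before the start, and 9 of these are shown here. Capitals mark these matches, and each sequence runs 5′ to 3′ along the gene.
Stat2 (chr10:128270261-128270300, plus strand): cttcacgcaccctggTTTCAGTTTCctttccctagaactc
Oas1a (chr5:120907526-120907560, minus strand): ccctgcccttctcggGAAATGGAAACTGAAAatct
Oas1g (chr5:120887614-120887646, minus strand): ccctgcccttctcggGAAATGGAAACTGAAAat
Oas3 (chr5:120777710-120777749, minus strand): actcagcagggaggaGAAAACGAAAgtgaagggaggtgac
Ifit1 (chr19:34640770-34640828, plus strand): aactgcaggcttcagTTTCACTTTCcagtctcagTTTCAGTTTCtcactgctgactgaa
Ifit3 (chr19:34583358-34583431, plus strand): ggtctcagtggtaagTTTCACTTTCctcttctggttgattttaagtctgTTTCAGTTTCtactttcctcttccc
Igtp (chr11:58199507-58199546, plus strand): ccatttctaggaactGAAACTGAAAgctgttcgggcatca
Isg15 (chr4:156200860-156200911, minus strand): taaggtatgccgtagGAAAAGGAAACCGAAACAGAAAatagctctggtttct
Cxcl10 (chr5:92349078-92349117, minus strand): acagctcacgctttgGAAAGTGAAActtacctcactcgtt
Isg15 had 3 overlapping matches that follow each other, and Ifit1, Ifit3, Oas1a and Oas1g had 2 each. The stretch of Ifit3 lies inside the span of its gene (34583119 to 34588982 in mm10), because the start used is not the outermost. The stretches of Oas1a and Oas1g are alike up to the start of Oas1g, and transcripts of such close paralogues may share probes, so the value of Oas1g is uncertain.

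The 4 measured Ifitm genes lie in 1 cluster on chromosome 7 (140954837 to 141016892 in mm10). Their 250 bases before the start are printed because the largest fall among the listed genes, that of Ifitm3, was in this cluster. Ifitm2 and Ifitm1 were read from starts inside their gene spans (140954837 to 140959686 and 140967429 to 140969827), so their stretches lie there too. The bases before the outermost start of either gene are not printed. Capitals here mark matches on either strand to any of 4 motifs. These were the response element core, the gamma-activated site TTCCNGGAA, the PU.1 site GAGGAAGT, and a composite of a PU.1 and an IRF site, GGAA and GAAA with any 2 bases between them.
Ifitm2 (chr7:140955962-140956211, minus strand): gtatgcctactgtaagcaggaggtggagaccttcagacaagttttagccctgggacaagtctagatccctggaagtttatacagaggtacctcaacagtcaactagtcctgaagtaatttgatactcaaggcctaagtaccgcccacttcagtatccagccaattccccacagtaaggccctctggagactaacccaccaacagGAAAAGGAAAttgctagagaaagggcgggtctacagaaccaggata
Ifitm1 (chr7:140967826-140968075, plus strand): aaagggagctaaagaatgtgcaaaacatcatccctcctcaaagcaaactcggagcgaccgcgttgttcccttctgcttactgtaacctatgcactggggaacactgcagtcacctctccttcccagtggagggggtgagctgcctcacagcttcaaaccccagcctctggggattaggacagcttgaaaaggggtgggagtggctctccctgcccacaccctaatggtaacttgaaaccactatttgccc
Ifitm3 (chr7:141010745-141010994, minus strand): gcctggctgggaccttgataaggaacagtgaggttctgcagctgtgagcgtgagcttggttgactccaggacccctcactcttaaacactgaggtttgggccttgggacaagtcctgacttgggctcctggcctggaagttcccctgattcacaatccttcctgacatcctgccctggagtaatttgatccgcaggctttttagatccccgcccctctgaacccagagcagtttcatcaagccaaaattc
Ifitm6 (chr7:141016893-141017142, minus strand): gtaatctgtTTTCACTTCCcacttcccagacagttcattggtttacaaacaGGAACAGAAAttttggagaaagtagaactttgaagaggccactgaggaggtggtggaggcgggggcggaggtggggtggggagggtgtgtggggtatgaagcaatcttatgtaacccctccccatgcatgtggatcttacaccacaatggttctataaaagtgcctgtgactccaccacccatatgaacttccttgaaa
Ifitm2 held a response element match that begins 46 bases before the start, and Ifitm6 held 2 composite matches. The stretches of Ifitm1 and Ifitm3 held no match, but Ifitm3 had 2 response element matches beginning at bases 3 and 20 after its start. Over all listed genes with a window, the composite motif occurred in 6 of 36 (16.7%, against 3.16% of all genes), the gamma-activated site in 3 (8.33%, against 1.35%) and the PU.1 site in 2 (5.56%, against 3.69%). Of the 7 composite matches in the listed genes, 2 overlapped a response element match (40 of 918 over all windows). A match is a description of the letters and does not show that a factor binds there.

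**Figure D1:**
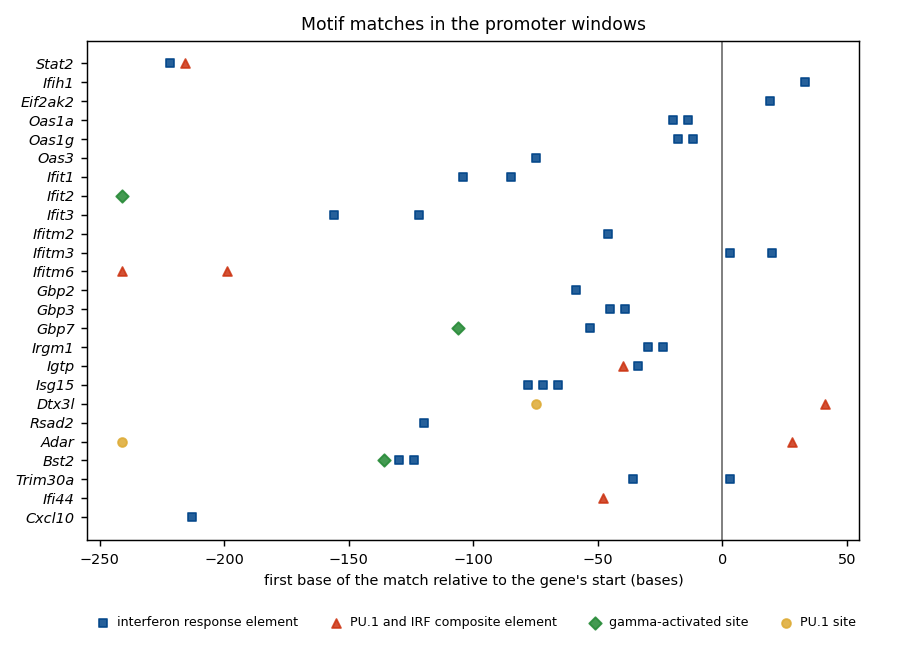
Position of each motif match, in bases from the gene's start used for that window (vertical line), for the listed genes with at least 1 match. Symbols mark the 4 motifs. Response element matches lie within 250 bases before the start in 17 genes, and the Ifitm3 matches lie just after it.

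In the comparison of induced with uninduced cells the listed genes did not move one way. Of the 41 measured genes, Oas2, which makes the 2′-5′ oligoadenylates that activate RNase L, rose, and Ifitm3, which blocks virus entry at endosomal membranes, fell. The other 39 did not pass the test (limma, Benjamini-Hochberg adjusted over 22180 genes, threshold 0.05), with adjusted p from 0.0605 for Xaf1 to 0.995 for Isg15. Over all genes 0.374% were called higher and 1.05% lower, and 1 of 41 in each direction is too small a count to be read against that background. All values are log2 expression values and all changes are induced minus uninduced. The changes ran from -1.21 to 0.86 with a median of 0.04, against a median of 0.06 over all 22180 genes. The signs were divided as well, with 22 above 0 and 19 below (53.7% above 0, near the 56.0% of all genes). An unadjusted p under 0.05 was reached by 9 of the 41 in the higher direction and 5 in the lower, where 11.4% and 16.9% of all genes reached it. Without induced C none of the 41 was called (limma; 5 had an unadjusted p under 0.05 in the higher direction and 4 in the lower). Without induced A 4 were called higher and 5 lower, where 9.01% and 15.9% of all genes were.

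Most of these genes were dim on the arrays, as were most of all genes measured. The reference for background was a set of 1394 receptor genes of smell and pheromone sensing (olfactory and vomeronasal), and a value below their 95th percentile on an array is called in the range of background. That percentile was 7.37, 7.05 and 7.34 in the uninduced samples (A, B, C) and 7.39, 7.99 and 7.85 in the induced ones (A, B, C), the order used for all values that follow. Of the 41 genes, 17 lay in that range on all 6 arrays, 19 rose above it on some arrays, and 5 (Ifit3, Ifitm3, Tap1, Samhd1 and Adar) were above it on all 6. Of all 22180 genes, 11918 lay in that range on all 6 arrays, 4871 rose above it on some, and 5391 were above it on all 6. Ifitm3 was the brightest, above 98.2% of all genes by its mean over the arrays.

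The whole array moved with level in a way that touches every value below. Genes with a mean under 7.50, the average of the 6 reference percentiles, had a median change of 0.17 over 13920 genes, and 80.1% of them lay above 0. The 8260 genes at or over that level had a median of -0.31, and 15.2% lay above 0. Most of this came with induced B and C, where dim genes sat 0.22 and 0.20 above the uninduced mean and bright genes -0.43 and -0.39 from it. In induced A the same medians were 0.06 and -0.10. Of the 27 listed genes on the dim side 18 lay above 0 (median 0.17), and of the 14 on the bright side 10 lay below 0 (median -0.15). How far this shift with level makes up the change of any single gene was not tested, so the change after cyclic loess, which removes a trend with level between arrays, is plotted beside the deposited one for every gene and given in the text for some. Cyclic loess moved 8 of the 41 changes across 0, and 31 of the 41 kept their sign as deposited and under median centring, quantile normalization and cyclic loess alike. The 10 whose sign turned under at least 1 of these scalings were Irf9, Oasl1, Mx1, Mx2, Tap1, Psmb9, Rsad2, Cmpk2, Adar and Trim30a.

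**Figure D2:**
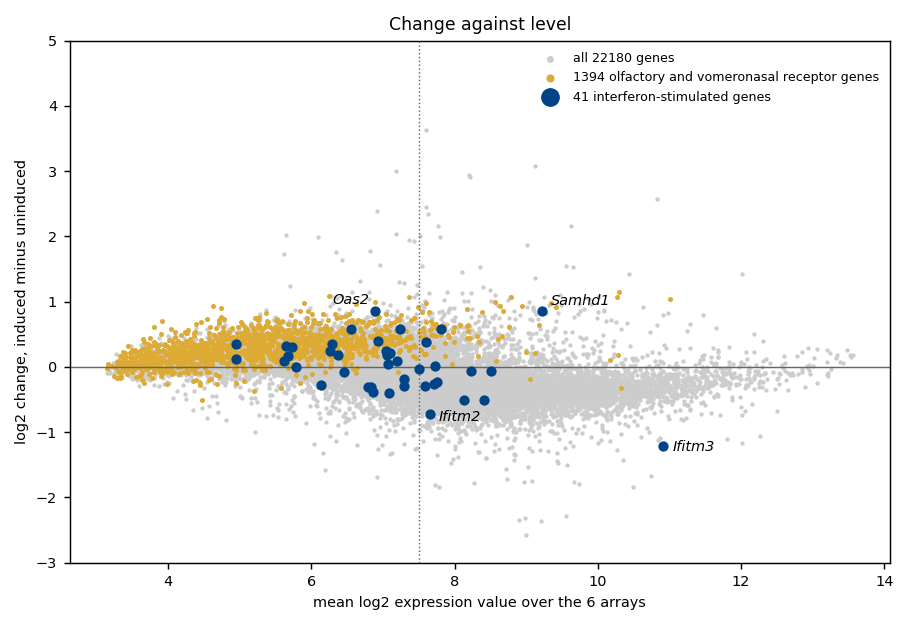
Log2 change (induced minus uninduced) against the mean log2 value over the 6 arrays for all 22180 genes (grey), the 1394 receptor genes (yellow) and the 41 interferon-stimulated genes (blue); the dotted line is the level of 7.50. Dim genes sit mostly above 0 and bright ones mostly below. Ifitm3 lies at -1.21 and Samhd1 at 0.86, and the genes at or over the level of 7.50 range from -2.57 to 3.63.

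The groups did not overlap for 12 of the 41 genes in the higher direction and 7 in the lower, where all genes gave 16.0% and 15.4%. On the bright side 5 of 14 genes had all 3 induced values below all 3 uninduced ones, where 33.6% of all bright genes did, and on the dim side 9 of 27 had them above, where 22.7% of all dim genes did. On the bright side Samhd1, Ifit3 and Parp14 had all 3 induced values above all 3 uninduced ones, 3 of 14 genes, where 4.67% of all bright genes did. On the dim side Igtp and Cxcl10 had all 3 induced values below, 2 of 27, where 4.58% of all dim genes did.

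**Figure D3:**
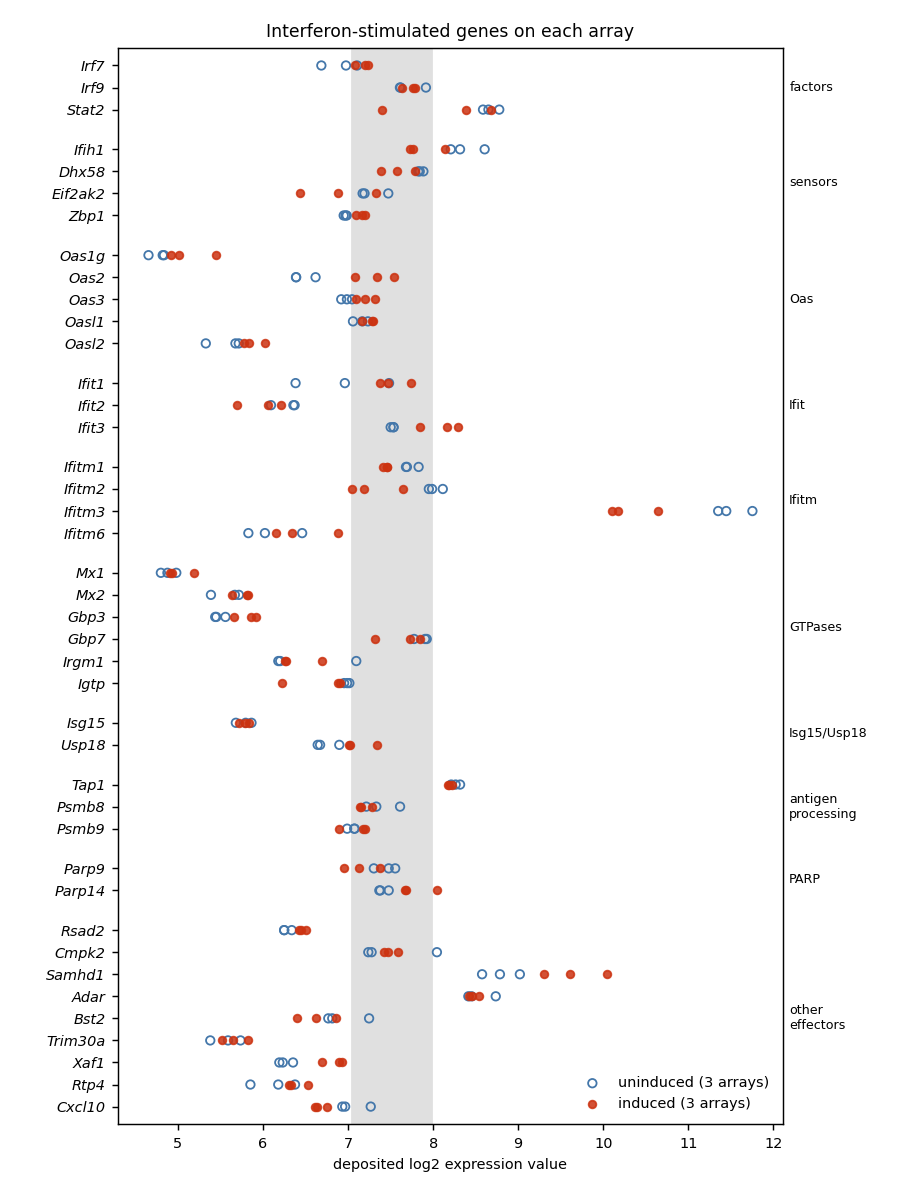
Deposited log2 value of each measured interferon-stimulated gene on each array, grouped by family; open circles are the 3 uninduced arrays, filled circles the 3 induced ones, and the grey band spans the 95th percentiles of the receptor genes (7.05 to 7.99). Most genes lie inside or to the left of the band, with Ifitm3 and Samhd1 well to its right.

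Among the factors that carry the interferon signal, Stat2, Irf9 and Irf7, no change passed the test. Stat2 (chromosome 10, 128270498 to 128292853 in mm10), a subunit of ISGF3, was at 8.65, 8.59 and 8.78 before and at 8.68, 7.40 and 8.39 after induction. Only induced B was far from the rest, in the range of background, and the groups overlapped. The change was -0.52 (SE 0.27, limma adjusted p = 0.217), -0.21 after cyclic loess and -0.14 without induced B. Irf9, the DNA-binding partner of STAT2, stayed level, with 7.71 ± 0.17 uninduced and 7.73 ± 0.08 induced (mean ± SD, n = 3 each). Its 95% interval ran from -0.29 to 0.31. Of its induced values only that of induced A was above the range of background. Irf7, the factor that amplifies interferon alpha production, was in the range of background on all 6 arrays, at 6.69 to 7.11 uninduced and 7.08 to 7.23 induced.

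The sensors did not pass the test either, and 3 of the 4 lay below 0. Ifih1, which encodes the long double-stranded RNA sensor MDA5, was at 8.21, 8.61 and 8.32 without induction and at 8.14, 7.73 and 7.76 with it. All induced values were lower, induced A only slightly so, and those of induced B and C lay in the range of background of their arrays. The change was -0.50 (SE 0.16, limma adjusted p = 0.12), and -0.25 after cyclic loess. Dhx58, which encodes the MDA5 helper LGP2, also had no overlap (7.82 to 7.89 against 7.39 to 7.79, change -0.27, or -0.13 after cyclic loess). Its values in induced B and C lay in the range of background too. Eif2ak2, which encodes PKR, the kinase that stops translation on double-stranded RNA, lay at -0.40 with overlapping groups and was above the range of background on 1 array only. Zbp1, a sensor of Z-form nucleic acids, went from 6.97 ± 0.02 to 7.15 ± 0.05, inside the range of background throughout.

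All 5 measured Oas genes of the followed list had a change above 0, and Oas2 alone passed the test. Oasl1 turned to -0.02 under median centring. Oas1b, read from a further list and named here after its values were seen, lay at -0.13 (limma adjusted p = 0.623). Its groups overlapped, and all its values were in the range of background. Oas2 (chromosome 5, 120730333 to 120749886) was at 6.62, 6.39 and 6.39 without and at 7.54, 7.08 and 7.34 with induction. Every induced value was above every uninduced one, with induced A highest. The difference was 0.85 (SE 0.15, 95% interval 0.52 to 1.19, limma adjusted p = 0.0225). Only induced A exceeded the range of background of its own array, so the size of the rise in transcript is not known and no fold is given. The adjusted p was 0.0686 after cyclic loess (difference 0.73), 0.0614 after quantile normalization and 0.0838 after median centring. It was 0.0598, 0.0899 and 0.0926 without uninduced A, B and C and 0.112 without induced C.

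Oas3, a neighbouring synthetase gene, was at 7.05, 6.99 and 6.92 and then at 7.09, 7.20 and 7.31, a change of 0.22 that did not pass the test. Oas1g (change 0.36, or 0.20 after cyclic loess) and the like-gene Oasl2 (0.31, or 0.10) also had all induced values above the uninduced ones, but at 4.65 to 5.44 and 5.33 to 6.02 they lay deep in the range of background. Oasl1, a translational inhibitor of Irf7, overlapped between groups (7.06 to 7.23 against 7.16 to 7.30). The receptor genes of the reference had a median change of 0.28, and the 4 followed Oas genes other than Oas2 lay between 0.09 and 0.36.

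The Ifit genes, which encode proteins that bind foreign RNA ends, were split. Ifit3 (chromosome 19, 34583119 to 34588982), a partner of IFIT1 in the IFIT complex, was at 7.53, 7.53 and 7.50 in uninduced and at 7.84, 8.29 and 8.16 in induced samples. It was above the range of background on all 6 arrays, and the groups did not overlap. Its change of 0.58 (SE 0.14, limma adjusted p = 0.0833) did not pass the test, nor did the 0.74 after cyclic loess (adjusted p = 0.0741), and it passed without induced A (0.70, adjusted p = 0.00971) but with no other array left out (adjusted p from 0.136 to 0.304). Ifit1, which binds RNA lacking cap methylation, was at 7.48, 6.38 and 6.96 and then at 7.47, 7.37 and 7.74. Only uninduced A and induced A were above the range of background. Uninduced A matched the induced samples, and the spread among uninduced samples (SD 0.55) was near the change of 0.59. Ifit2 went the other way, from 6.27 ± 0.16 to 5.99 ± 0.26, in the range of background on all arrays. The stretches of Ifit1 and Ifit3 above each hold 2 matches to the letters of the response element, and none was found in the window of Ifit2. Whether such matches bear on these changes was not tested.

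Of the 4 measured Ifitm genes 1, Ifitm3, fell and the other 3 did not pass the test. Ifitm3 (chromosome 7, 141009590 to 141010744) was at 11.45, 11.75 and 11.35 in uninduced and at 10.64, 10.10 and 10.17 in induced samples. The groups were separated by more than the spread within either, with induced A nearest to the uninduced samples. The transcript was 2.32-fold lower, a log2 change of -1.21 (SE 0.17, 95% interval -1.60 to -0.83, limma adjusted p = 0.00781). It stayed past the threshold after cyclic loess (-0.91, adjusted p = 0.00574), quantile normalization (-1.06, adjusted p = 0.0098) and median centring (-1.33, adjusted p = 0.0314). Without induced C the adjusted p was 0.052 at a change of -1.15.

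Its neighbours Ifitm2 and Ifitm1, which encode restriction factors of the endosome and of the cell surface, lay lower too. Ifitm2 was at 7.99, 8.11 and 7.95 and then at 7.64, 7.18 and 7.05, a change of -0.73 (SE 0.17, limma adjusted p = 0.0629). No induced value reached the uninduced ones, and only induced A was above the range of background of its array. Ifitm1 was at 7.69, 7.83 and 7.68 and then at 7.41, 7.45 and 7.46, and the change of -0.29 (SE 0.12, adjusted p = 0.16) did not pass. The induced values lay below all uninduced ones, with those of induced B and C in the range of background, and the change after cyclic loess was -0.19. Ifitm6 overlapped between groups at 5.83 to 6.46 and 6.15 to 6.88, all in the range of background, with a change of 0.36, or 0.15 after cyclic loess. Ifitm1, Ifitm2 and Ifitm3 stayed below 0 and Ifitm6 above 0 under each of the 3 other scalings. Since Ifitm2 and Ifitm3 are close paralogues, shared probe signal between them was not tested.

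**Figure D4:**
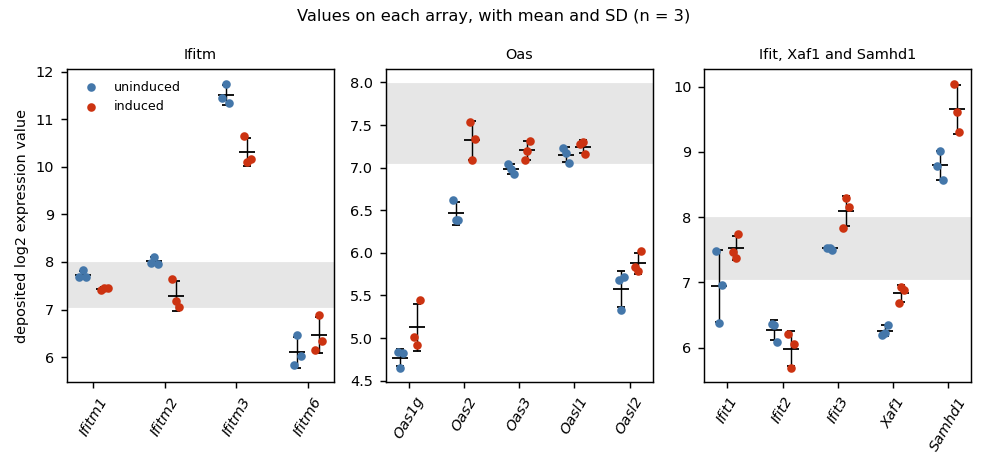
Deposited log2 values of the Ifitm, Oas and Ifit genes, Xaf1 and Samhd1 on each array (points), with the mean and SD of each group (n = 3); the grey band spans the 95th percentiles of the receptor genes, and the vertical scale differs between panels. Ifitm3 goes from 11.52 to 10.30 between groups and Oas2 from 6.46 to 7.32.

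None of the 6 measured interferon-inducible GTPases of the followed list passed the test (limma; 1 had an unadjusted p under 0.05 in the higher direction). Mx1 and Mx2, dynamin-like proteins that trap viral nucleocapsids, were in the range of background on all arrays, with changes of 0.12 and 0.17 that turned to -0.03 and -0.04 after cyclic loess. Gbp3, a guanylate-binding protein, was there too, at 5.56, 5.45 and 5.44 and then at 5.86, 5.66 and 5.91 (change 0.33, or 0.13 after cyclic loess). Gbp7 was at 7.78 to 7.92 uninduced and at 7.85, 7.31 and 7.73 induced, with induced B and C in the range of background. Only induced B stood clearly lower. The same array was the low one for Igtp, which encodes IRGM3, at 6.90, 6.22 and 6.88 against 6.95 to 7.01. Irgm1, a regulator of the other immunity-related GTPases, was high in uninduced B alone (7.10, against 6.18 to 6.69 elsewhere). More GTPases were read from a further list and are named here after their values were seen. Gbp9, Gbp5 and Iigp1 lay at 0.41, 0.37 and 0.40 (limma adjusted p = 0.107, 0.142 and 0.162), each with an unadjusted p under 0.05. All their induced values were higher, where 22.7% of all dim genes had the same. Gbp4, Gbp6 and Irgm2 were at 0.28, -0.03 and -0.01 with overlapping groups.

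Isg15, the ubiquitin-like modifier and a standard reporter of interferon response, had the smallest change of the 41 as deposited, and lay at -0.21 after cyclic loess. It was at 5.80, 5.68 and 5.86 and then at 5.78, 5.71 and 5.84, all in the range of background, with a 95% interval of the difference from -0.28 to 0.28. Usp18, the protease that removes ISG15 and dampens the receptor, was at 6.67, 6.64 and 6.90 and then at 7.02, 7.01 and 7.34, also in the range of background. Its change of 0.39 did not pass the test (limma adjusted p = 0.139), though the groups did not overlap.

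None of the 3 measured genes for antigen processing on the followed list passed the test (limma; none had an unadjusted p under 0.05 either). Tap1, a subunit of the peptide transporter of the endoplasmic reticulum, was at 8.21, 8.32 and 8.26 and then at 8.18, 8.18 and 8.23, and its 95% interval ran from -0.34 to 0.20. The change was -0.07 as deposited and 0.20 after cyclic loess. It was above the range of background on all arrays. The immunoproteasome subunits Psmb8 and Psmb9 had changes of -0.19 and 0.04 and overlapping groups. More such genes were read from a further list and are named here after their values were seen. Tap2 and Psme1 lay at -0.42 and -0.43 (limma adjusted p = 0.111 and 0.133), each with an unadjusted p under 0.05. All their induced values were lower, where 33.6% of all bright genes had the same. Tapbp, Psmb10 and Psme2 were at -0.25, -0.09 and 0.09 with overlapping groups. Of the PARP group, Parp14, a macrodomain ADP-ribosyltransferase, had all induced values above the uninduced ones (7.37, 7.38 and 7.48, then 8.04, 7.66 and 7.68), while Parp9 lay at -0.29 with overlapping groups. Neither passed the test (limma adjusted p = 0.138 and 0.205). For Parp14 only induced A, of the induced samples, was above the range of background.

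Among the other effectors Samhd1 had the largest difference. SAMHD1 breaks down dNTPs and so starves reverse transcription, and it is abundant in myeloid cells. Samhd1 (chromosome 2, 157097534 to 157135096) was at 8.79, 9.02 and 8.58 in uninduced and at 10.05, 9.61 and 9.30 in induced samples. Every induced value was above every uninduced one, and all were above the range of background. The change of 0.86 (SE 0.19, limma adjusted p = 0.0619), or 1.81-fold, did not pass the test as deposited. It passed after cyclic loess (1.23, adjusted p = 0.00453) and quantile normalization (1.08, adjusted p = 0.0141), with the filter on dim genes (adjusted p = 0.0458) and without induced A (0.66, adjusted p = 0.0236), but not after median centring (0.75, adjusted p = 0.133) or with a variance trend (adjusted p = 0.0621). With any of the other 5 arrays left out the adjusted p ran from 0.0651 to 0.171.

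Xaf1, a promoter of apoptosis, was at 6.19, 6.23 and 6.35 and then at 6.69, 6.93 and 6.89. The groups were apart and the change of 0.58 (SE 0.13, limma adjusted p = 0.0605) was larger than the spread in either group, yet all values lay in the range of background. Cxcl10, the chemokine that draws CXCR3-bearing T cells, lay lower in the induced samples, at 6.63, 6.61 and 6.75 against 6.97, 7.27 and 6.93. Only uninduced B was above the range of background, and the change of -0.39 (adjusted p = 0.132) did not pass the test. Rsad2, which encodes viperin, and Cmpk2, a nucleotide kinase, differed by 0.18 and -0.03. Adar, the RNA editing enzyme, was at 8.41 to 8.74 and 8.43 to 8.54, with a 95% interval of -0.36 to 0.24, and its change of -0.06 turned to 0.26 after cyclic loess. Bst2, which encodes tetherin, the membrane tether of budding virus, was at -0.32, Trim30a at 0.10 and the chaperone gene Rtp4 at 0.25, all with overlapping groups. Rsad2, Trim30a and Rtp4 were in the range of background on all arrays.

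**Figure D5:**
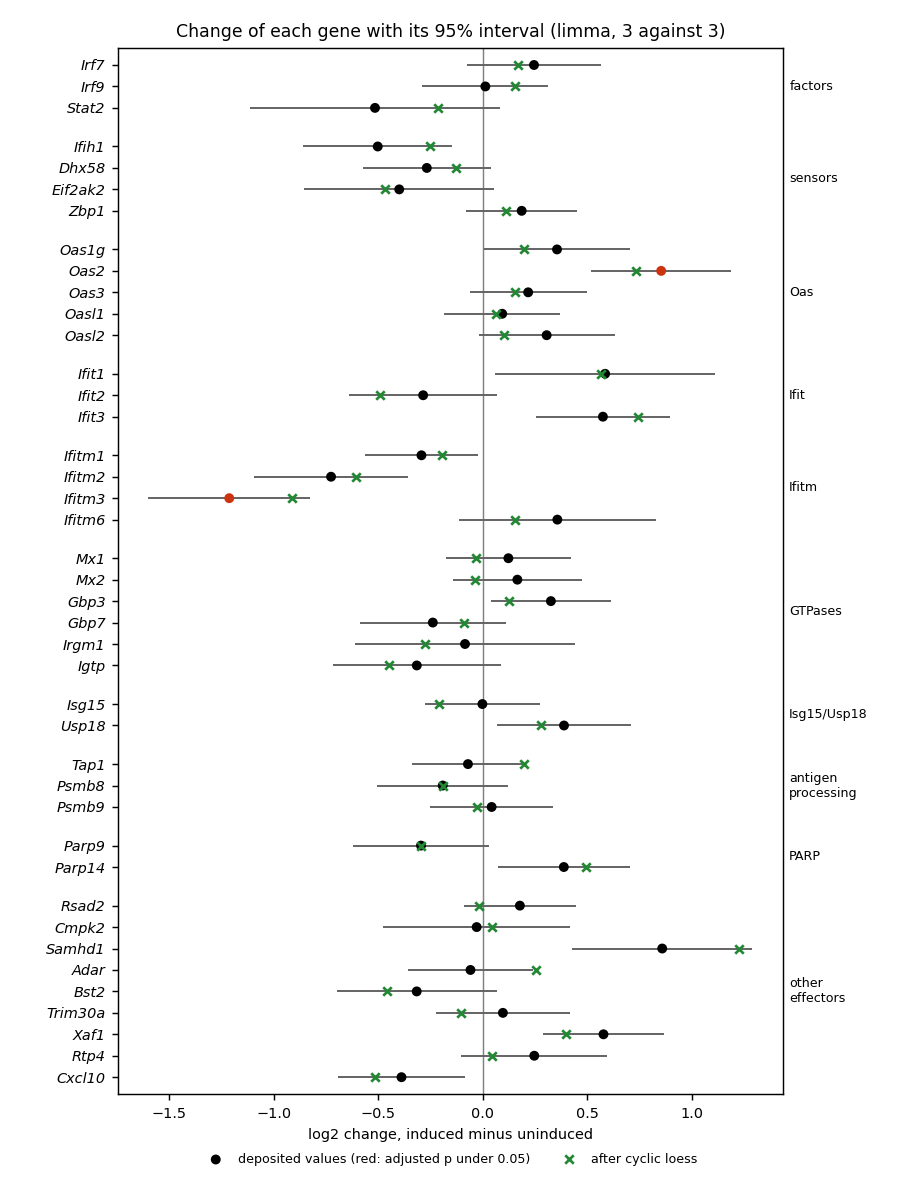
Log2 change of each of the 41 genes (dots, induced minus uninduced) with its unadjusted 95% interval from limma, in red where the adjusted p is under 0.05, and the change after cyclic loess (green crosses). Only Oas2 and Ifitm3 are red, and the cross lies farther from 0 than the dot for Samhd1 and Ifit3.

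Genes with and without the response element in their promoter window were found on both sides of 0. Of the 18 measured genes with a match, 7 lay above 0 and 11 below (median -0.16). Of the 14 measured genes with a window and no match, 8 lay above 0 and 6 below (median 0.03).

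The rest of the interferon pathway was read from 4 further lists, with 102 of 114 genes measured, and none of the 102 passed the test (limma; 17 had an unadjusted p under 0.05 in the higher direction and 13 in the lower, where 11.4% and 16.9% of all genes did). Their median change was 0.01. Of the 16 genes of receptors and signalling 11 were above the range of background on all arrays, and 10 of the 16 lay below 0. Ifngr1, the ligand-binding chain for interferon gamma, was at 12.36 ± 0.05 and 12.15 ± 0.24, Ifnar2 at 10.55 ± 0.02 and 10.48 ± 0.25, and Jak1 at 10.33 ± 0.14 and 10.16 ± 0.21. Ifnar1 and Tyk2, named here after their values were seen, were at -0.30 and -0.26, Tyk2 with all induced values lower. Of these 16 genes 0 had an unadjusted p under 0.05.

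Of 19 interferon ligand genes 18 lay above 0, with a median of 0.19, and 12 were in the range of background on all arrays. Of the 1394 receptor genes of the background reference 91.0% lay above 0, with a median of 0.28. The 3 brightest, Ifna1 (change 0.59), Ifna4 (0.51) and Ifnl2 (0.33), did not pass the test, and since the interferon alpha genes are near-identical copies, which of them gave the signal is uncertain. Among 14 genes of nucleic acid sensing upstream of interferon, Myd88 and Ikbke, an adaptor and a kinase, were at -0.19 and -0.59, and Unc93b1, the chaperone of endosomal Toll-like receptors, at 0.33. Of 53 further interferon-induced genes 26 lay above 0 and 27 below. The brightest were B2m, the light chain of MHC class I, at 12.29 ± 0.09 and 12.41 ± 0.08, Ly6e at 10.65 ± 0.21 and 10.32 ± 0.17, and the thiol reductase gene Ifi30 at 10.63 ± 0.14 and 10.13 ± 0.31.

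Markers were read for the labelled cell type and for others that fetal liver could hold. Of 10 myeloid markers 7 were above the range of background on all arrays. By the test 4 rose and 0 fell (Lyz2, Cd68, Mpo and Ptprc, the last in the range of background throughout), where 0.374% and 1.05% of all genes did. Of the 10 changes 7 lay above 0 and 3 below. Cebpa, bright on all arrays, was among the latter (9.22 ± 0.08 and 8.82 ± 0.47, limma adjusted p = 0.212). Lyz2, lysozyme, went from 11.30 ± 0.24 to 12.73 ± 0.03 and Cd68 from 8.44 ± 0.22 to 9.81 ± 0.33. The mean level of the list was 8.04 to 8.24 in uninduced and 8.64 to 8.79 in induced samples. Plasmacytoid dendritic cells are strong interferon producers, and of 7 of their markers Cd300c rose while Siglech, their defining receptor, was in the range of background on all arrays. Tcf4, a factor of that lineage and the only one of the 7 above background on all 6 arrays, was lower in all induced samples (8.93 ± 0.31 and 8.23 ± 0.18) and did not pass the test (limma adjusted p = 0.0822). The list's mean was 6.73 to 6.84 and 6.91 to 7.08. Markers of T and NK cells (6 genes) and erythroid cells (2 genes) were in that range on all arrays, as were 4 of 5 B lineage, 5 of 6 hepatocyte, 4 of 6 mast cell and 4 of 6 stromal and endothelial markers, and none of these lists had a gene past the test (limma; 6 genes had an unadjusted p under 0.05 in the higher direction and 3 in the lower, against 11.4% and 16.9% of all genes). The mean level of the hepatocyte list was 6.43 to 6.69 in uninduced and 6.71 to 6.91 in induced samples, that of T and NK cells 5.76 to 5.99 and 5.97 to 6.13, and the other lists overlapped between groups. The part of these differences in the values of the interferon-stimulated genes was not tested. In bulk samples, fewer cells of a type and less RNA per cell cannot be told apart.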

How the data were processed

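Affymetrix Mouse Gene 2.0 ST arrays were run on RNA of 3 uninduced and 3 induced samples, grouped by their titles. The authors deposited log2 expression values for 41345 transcript clusters. Per the submitters' processing notes, Partek and build mm10 were used. Their normalization is not stated in these sources, and the log2 scale was read from the values. The number of arrays limits the precision.

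Clusters with exactly 1 symbol in GEO's platform annotation (23521; 1814 carry several and 16010 are not listed) gave 22180 genes, the highest cluster mean standing for each of the 1082 genes with several. The test was limma (version 3.58.1, R 4.3.3, two-sided, no covariate, no filter), adjusted over all 22180 genes at 0.05 and checked on simulated data. Positions and promoter windows come from RefSeq (GRCm38.p6, also called mm10). Alternatives were the letter A, B or C as a block, 3 other scalings, a filter on dim genes, the mean over a gene's clusters, a variance trend, array weights and leaving out each array. All listed genes may be named, and from the other lists any gene that passed the test, with the 3 brightest of a list added. Other genes of those lists, among them further Oas, GTPase and antigen processing genes, were named after their values were seen. The listed genes and all gene lists were chosen with earlier results of these data known.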

Additional observations from a re-analysis of the deposited data

How the results depend on the processing

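The higher and lower calls among the 41 genes were 1 and 1 as deposited. They were 2 and 2 with the letter as a replicate block (Oas2 and Samhd1, Ifitm2 and Ifitm3). Of the same-lettered pairs only that of C deviated together (correlations of -0.31, -0.28 and 0.42 for A, B and C). Uninduced B and induced A, of different letters, did so more (0.52). Over whole arrays the highest correlation between groups (0.991) was above the highest within a group (0.988). The filter at the 25th percentile, which tests 34 of the 41, gave 2 and 2. Cyclic loess and quantile normalization gave 1 and 1, with Samhd1 in place of Oas2. Higher calls were 0 after median centring (limma; 4 at an unadjusted p under 0.05) and 2 with a variance trend (Oas2 and Xaf1). Array weights gave 15 higher and 9 lower, but called 26.3% and 25.6% of all genes, and rested on uninduced C (weight 4.6) and induced C (3.46). Leaving out 1 array gave 0 to 4 higher and 0 to 5 lower calls, the most without induced A, when 9.01% of all genes were called higher and 15.9% lower. The median change of 0.04 became 0.0233 after quantile normalization, -0.0712 after median centring, -0.0196 after cyclic loess, -0.0433 with the filter and 0.0632 with array weights, and ran from 0.0074 to 0.0647 with 1 array left out. Of the 102 other pathway genes, 0 were called as deposited (limma); the replicate block called 1 higher (Slfn2), median centring 1 lower (Isg20), array weights 25 higher and 24 lower, and leaving out 1 array 0 to 11 higher and 0 to 13 lower. With 17 of the 41 genes in the range of background on all 6 arrays, their values limit what can be read of their transcripts.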
